A study of Mus musculus with 2 samples.

Results

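The genes of the p53 family (Trp53, Trp63 and Trp73), the p53 inhibitors Mdm2 and Mdm4, and 5 genes known as p53 targets (Perp, Phlda3, Sesn1, Sesn2 and Ccng1) were taken by symbol from 2 deposited expression tables. All 10 were found among 22558 genes. The tables come from 1 RNA sequencing library of breast tumour initiating cells (TIC, cells that can start a new tumour) and 1 of non-tumorigenic cells (NTC). Both kinds of cell were dissociated from tumours of mice of the inbred FVB strain and sorted at once by flow cytometry, with no treatment. Each library was amplified from 15 ng of total RNA. The tumour model, any transgene, the animals' age, the sort markers and the number of tumours pooled are not stated in the labels. With 1 library per group there is no replicate, so no test, SD or p-value is given, and every difference is between these 2 libraries.

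p53 is a transcription factor that stops the cell cycle, starts cell death or switches on repair and metabolic genes after DNA damage and other stress. Mdm2 marks p53 for destruction and is itself a p53 target, and the related Mdm4 blocks p53 activity, so the genes form a feedback loop. p63 and p73 share the DNA-binding domain of p53. p63 maintains the basal layer of stratified and glandular epithelia, the mammary myoepithelium included.

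Values are FPKM, a gene's fragment count divided by transcript length and by sequencing depth, so levels can be set beside each other between genes. A gene whose 2 values average 1 FPKM or more is called measured. The log2 ratio is that of (TIC + 1) to (NTC + 1) FPKM and understates differences of low genes. A gene is termed TIC-high where this ratio is 1 or more (2-fold) and NTC-high where it is -1 or less. Depth, estimated from the median of low values of short genes inside a preset window, was roughly 21.0 M fragments for the TIC library and 21.6 M for the NTC library. The window bounds the estimate, so the closeness of the 2 depths is partly set by it. With transcript lengths from GENCODE these depths give approximate 95% intervals for the counting of fragments alone. Copies made by amplification are not independent molecules, and the intervals cover no variation between animals or sorts. They also leave out any error in the scaling between the libraries.

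The TIC library was the one with the higher level for 9 of the 10 genes, and the size of the difference varied widely. The 9 include Ccng1, at a log2 ratio of 0.018, whose counting interval includes equality. By ratio, Ccng1 stood above 60.1% of measured genes, and Mdm4, the gene lower in TIC (-0.03), above 57.4%. Most measured genes thus had lower values in TIC. All 10 genes were measured. TIC-high were 5 of them (Trp63, Phlda3, Trp73, Perp and Sesn1), where 14.6% of the 12004 measured genes were TIC-high. None of the 10 was NTC-high, against 13.8% of measured genes. The other 5 (Mdm2, Trp53, Sesn2, Ccng1 and Mdm4) lay within 2-fold. The median log2 ratio was 1.29 over the 10 genes and -0.16 over all measured genes.

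**Figure D1:**
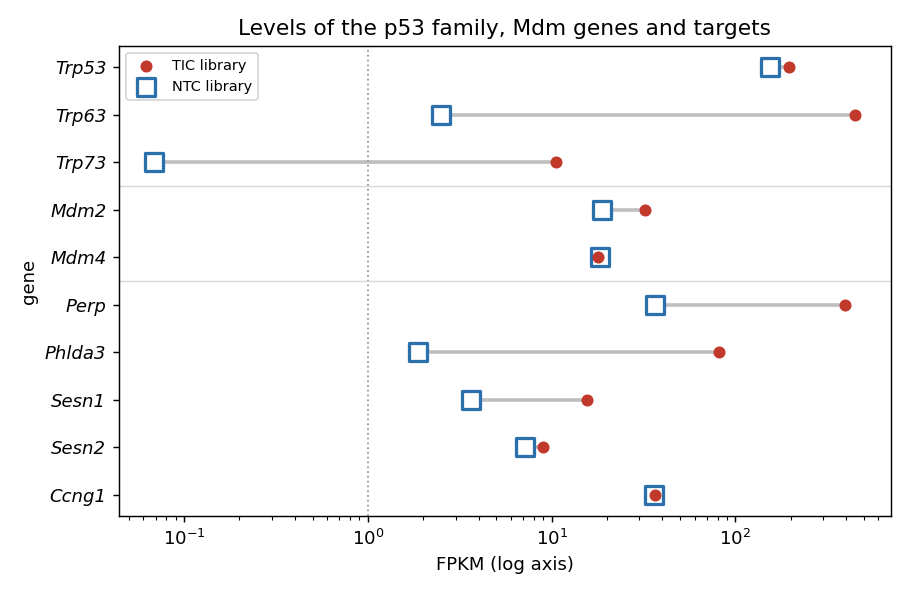
Level in FPKM (log axis) of each of the 10 genes in the TIC library (red points) and the NTC library (open blue squares), with family members, inhibitors and targets separated by lines. Trp63, Trp73, Perp, Phlda3 and Sesn1 stand well apart between the libraries, while the symbols for Mdm4 and Ccng1 coincide; the dotted line marks 1 FPKM.

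The order of the levels differed between the libraries. In TIC, Trp63 had the highest level, followed by Perp, Trp53, Phlda3, Ccng1, Mdm2, Mdm4, Sesn1, Trp73 and Sesn2. The lowest 2 of these, Trp73 and Sesn2, overlapped in their counting intervals (9.60 to 11.6 and 8.30 to 9.69 FPKM). In NTC, Trp53 led, followed by Perp, Ccng1, Mdm2, Mdm4, Sesn2, Sesn1, Trp63, Phlda3 and Trp73. There, 3 pairs of neighbours overlapped in their counting intervals, Perp with Ccng1, Mdm2 with Mdm4, and Trp63 with Phlda3. The levels spanned 50.2-fold in TIC. In NTC they spanned 82.0-fold without Trp73, whose level there rests on about 3 fragments.

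Trp53, which encodes p53 itself, was abundant in both libraries. Its level was 195.7 FPKM in TIC and 153.6 FPKM in NTC, above 98.1% and 97.3% of the measured genes (chromosome 11, 69393861 to 69405375, build mm9). The TIC value was 1.27 times the NTC value (counting interval 1.23 to 1.32, log2 ratio 0.35). A processed pseudogene of Trp53 is known in the mouse, and the sources do not say how reads shared with it were assigned. Wrap53, the gene on the opposite side of the Trp53 start, had 2.29 and 3.36 FPKM, and its locus in the tables ends 1034 bases from that of Trp53.

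Trp63, which encodes the p63 regulator of basal epithelium, had the largest ratio of the 10 genes. It had 450.6 FPKM in TIC and 2.51 FPKM in NTC, a log2 ratio of 7.01 (chromosome 16, 25683851 to 25892174, build mm9). On the linear scale the TIC level was 180-fold higher (counting interval 156 to 207). Among measured genes it stood above 99.4% by level in TIC and above 16.2% in NTC, and its ratio exceeded that of 99.8% of them. Trp63 makes proteins with and without a transactivation domain from separate promoters, and the gene-level FPKM does not tell them apart.

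Trp73, which encodes p73, had 10.5 FPKM in TIC and 0.0685 FPKM in NTC (chromosome 4, 153430358 to 153514317, build mm9). The NTC value corresponds to about 3.05 fragments at the median length of its coding transcripts, and to 0.908 to 7.47 fragments at the shortest and longest. The linear ratio of 154 therefore has a wide counting interval, from 53.2 to 761, and the log2 ratio with the pseudocount was 3.43. In TIC the gene was near the middle of the measured genes, above 50.4% of them by level.

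Read as shares of the summed FPKM of the family, Trp63 led in TIC and Trp53 in NTC. In TIC, Trp63 made up 68.6% of 656.8 FPKM, Trp53 29.8% and Trp73 1.60%. In NTC, Trp53 made up 98.4% of 156.2 FPKM, Trp63 1.61% and Trp73 0.0439%. The lower share of Trp53 in TIC accompanied a Trp53 level that was slightly higher there.

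**Figure D2:**
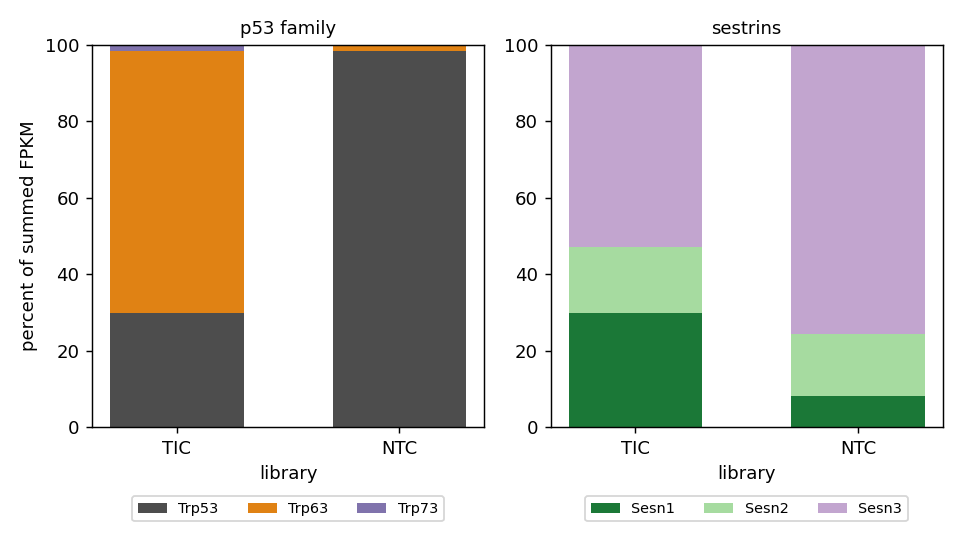
Percent of the summed FPKM held by each gene of the p53 family (left) and by each of the 3 sestrin genes (right) in the TIC and NTC libraries. Trp63 fills 68.6% of the family's bar in TIC and 1.61% in NTC, and Sesn1 fills 29.8% and 8.27% of the sestrins' bar.

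Of the inhibitors, Mdm2, the ubiquitin ligase that turns p53 over, had 32.4 FPKM in TIC and 18.8 FPKM in NTC (chromosome 10, 117125961 to 117147772, build mm9). The TIC value was 1.73 times the NTC value (counting interval 1.61 to 1.85, log2 ratio 0.76), below 2-fold. Mdm4, the inhibitor without effective ligase activity of its own, had 17.9 and 18.3 FPKM (chromosome 1, 134886422 to 134921925). Its linear ratio of 0.978 had a counting interval of 0.906 to 1.06, which includes equality. Mdm2 was thus 1.81 times Mdm4 in TIC and 1.02 times Mdm4 in NTC. Trp53 stood at 6.04 times the Mdm2 level in TIC and 8.19 times in NTC, and at 3.89 and 4.14 times the sum of both inhibitors.

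Among the targets, Perp and Phlda3 had the largest differences. Perp, a membrane protein of desmosomes that both p53 and p63 can switch on, had 395.0 FPKM in TIC and 36.5 FPKM in NTC (chromosome 10, 18564877 to 18576878, build mm9). The TIC level was 10.8-fold higher (counting interval 10.3 to 11.4, log2 ratio 3.40), and Perp was among the more abundant genes of both libraries, above 99.3% and 83.5% of measured genes. Phlda3, a small pleckstrin-homology protein that competes with the kinase Akt for membrane lipids, had 81.9 and 1.87 FPKM (chromosome 1, 137662662 to 137665711). That is a 43.7-fold higher level in TIC (counting interval 33.8 to 57.9, log2 ratio 4.85), with about 58.1 fragments behind the NTC value.

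The sestrins, which restrain the growth kinase mTORC1 when amino acids are scarce, differed in the size of their ratios. Sesn1 had 15.5 FPKM in TIC and 3.66 FPKM in NTC, 4.24-fold higher in TIC (counting interval 3.70 to 4.89, log2 ratio 1.83; chromosome 10, 41530380 to 41628242, build mm9). Sesn2, the sestrin best known for sensing leucine, had 8.98 and 7.12 FPKM, a ratio of 1.26 (counting interval 1.12 to 1.42; chromosome 4, 132048722 to 132066371). Sesn1 was therefore 1.73 times Sesn2 in TIC and 0.513 times Sesn2 in NTC. The relative Sesn3 was the highest sestrin in both libraries, with 27.6 FPKM in TIC and 33.5 FPKM in NTC, and held 52.97% and 75.6% of the summed sestrin FPKM.

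Ccng1, a cyclin that recruits phosphatase 2A to Mdm2, was the target with the closest levels. It had 36.7 FPKM in TIC and 36.2 FPKM in NTC (chromosome 11, 40562054 to 40568788, build mm9). The linear ratio of 1.01 had a counting interval of 0.960 to 1.07. Ccng1 and Mdm4 were the members whose interval included equality at the deposited scaling. When centred on the median gene, their log2 ratios were 0.18 and 0.13. Both lie above their counting intervals, whose upper ends are 0.093 and 0.074 on the log2 scale.

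**Figure D3:**
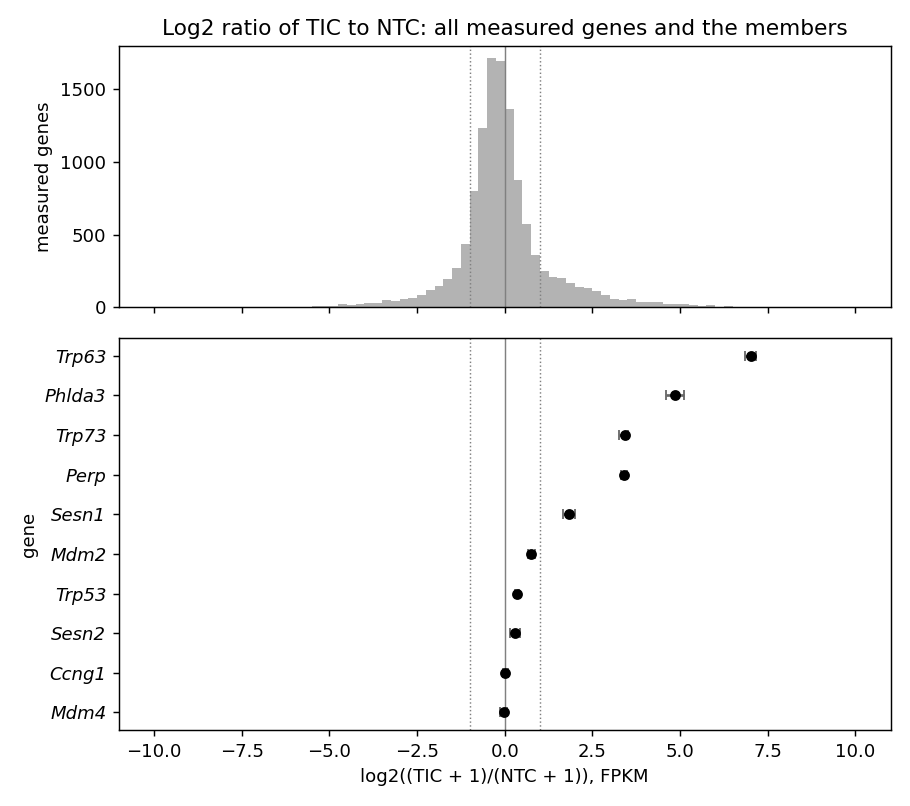
Top, number of measured genes (of 12004) by log2 ratio of TIC to NTC in steps of 0.25; bottom, the log2 ratio of each of the 10 genes with its approximate 95% counting interval (bars), dotted lines marking 2-fold. The 10 genes run from -0.03 (Mdm4) to 7.01 (Trp63), and 5 lie to the right of the upper dotted line.

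The promoters of these genes were read for the sequence that p53 binds, to show which members carry it close to a start and how those members' levels compare. The p53 half-site consensus is a run of purines, a C, a pair of A or T, a G and a run of pyrimidines, 10 bases long. It equals its own reverse complement, so each match holds for both strands. A full site is 2 half-sites without a gap. RefSeq promoters of build GRCm38.p6 (reference strain sequence, from 250 bases before to 50 after an annotated start) matched 8 of the 10 genes with 11 promoters; Trp63 and Perp had none there. An exact half-site was present in 4 of the 11, in Trp53, Mdm2, Sesn1 and Ccng1, against 8.36% of 32817 promoters of the same length. With 1 mismatch allowed over 20 bases, Ccng1 was the member with a full site, a form found in 0.0884% of all promoters. With 2 mismatches allowed, 1 of the Trp73 promoters also had one, as did 0.795% of all promoters. The mismatches allowed were chosen after the sequences were seen. Below, each line runs 5′ to 3′ on the gene's strand with the match in capitals; the exact half-site of Ccng1 is the second part of its full site.
Ccng1, full site, chr11:40755442-40755501, minus strand: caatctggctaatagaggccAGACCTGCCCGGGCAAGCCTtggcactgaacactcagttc
Trp73, full site with 2 mismatches, chr4:154097200-154097259, minus strand: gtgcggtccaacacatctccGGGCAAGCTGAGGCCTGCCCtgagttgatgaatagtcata
Mdm2, half-site, chr10:117710915-117710964, minus strand: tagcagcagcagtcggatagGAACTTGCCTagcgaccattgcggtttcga
Sesn1, half-site, chr10:41887246-41887295, plus strand: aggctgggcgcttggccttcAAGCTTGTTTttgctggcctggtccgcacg
Trp53, half-site, chr11:69580264-69580313, plus strand: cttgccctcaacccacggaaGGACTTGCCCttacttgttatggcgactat

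The Ccng1 site begins 195 bases before the annotated start, that of Trp73 66 bases, and the half-sites of Mdm2, Sesn1 and Trp53 begin 186, 173 and 75 bases before it. Of the 4 genes with an exact half-site, Sesn1 was TIC-high, and Ccng1, Mdm2 and Trp53 were within 2-fold. Another promoter of Sesn1 had no half-site. Trp73, also TIC-high, was matched only with 2 mismatches allowed. Phlda3, with a log2 ratio of 4.85, had no exact half-site in its window. A match describes letters only, and binding was not measured here.

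Of 18 measured genes listed as activators and cofactors of p53, 1 was TIC-high (5.56%) and 3 were NTC-high (16.7%), with a median log2 ratio of -0.40. Among all measured genes the shares were 14.6% and 13.8%. The list also holds an inhibitor of p53, Ppp1r13l, which is 1 of the 3 NTC-high genes. The damage kinases Chek1 (2.05 FPKM in TIC, 6.66 FPKM in NTC) and Chek2 (3.40 against 10.4) were lower, as was Ppp1r13l, which encodes the p53 inhibitor iASPP (13.1 against 34.1). Cdkn2a, whose locus gives both the Mdm2 inhibitor p19Arf and the cell cycle inhibitor p16, had 2.34 against 0.0798 FPKM, and the table does not separate these products. With a pseudocount of 5 FPKM, Cdkn2a, Chek1 and Chek2 were within 2-fold and Ppp1r13l was the remaining call, and with a minimum mean of 5 FPKM Cdkn2a and Chek1 were not measured. Crebbp, an acetyltransferase of p53, had 95.6 against 83.3 FPKM, and Trp53bp1, a damage-site protein, had 16.01 against 14.3. The 9 other ubiquitin and SUMO ligases and phosphatases of the pathway were all within 2-fold, with a median of -0.28. They ranged from Pias1, a SUMO ligase (13.1 against 22.1 FPKM), Ppm1d, the p53 phosphatase Wip1 (7.80 against 11.03) and Rfwd3 (16 against 21.8) to Ube3a (10.7 against 10.1), Ube4b (55.3 against 51.4) and Trim24 (6.71 against 5.96).

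Of 32 measured targets outside the 10 genes, 4 were TIC-high and 4 NTC-high, 12.5% each way, next to 14.6% and 13.8% of all measured genes. Their median log2 ratio was 0.38. The counts were 2 TIC-high and 1 NTC-high with a pseudocount of 5 FPKM, 2 and 3 with a minimum mean of 5 FPKM, and 9 and 4 after centring on the median gene. Over all measured genes the counts were 1086 and 921, 1108 and 1175, and 1952 and 1356 in the same order, against 1749 and 1658 in the main setting. They are out of 12004 genes, but out of fewer with the minimum mean of 5 FPKM. The TIC-high count of the targets thus depends on the scaling. Among the targets of growth arrest, 3 of 8 measured were TIC-high and none was NTC-high, with a median of 0.86. These were the polo-like kinase Plk2 (104.7 against 36.6 FPKM), the phosphatase Ptprv (4.36 against 1.34) and the RNA-binding protein Zmat3 (21.4 against 9.66). The count of 3 fell to 1 (Plk2) with a pseudocount of 5 FPKM and to 2 with a minimum mean of 5 FPKM, and rose to 5 after centring; with no minimum, Gdf15 was added as NTC-high. Cdkn1a, the cyclin-dependent kinase inhibitor p21 and the best known p53 target, had 24.4 FPKM in TIC and 16.4 FPKM in NTC, a log2 ratio of 0.55. Btg2, an antiproliferative factor, had 51.2 against 60.8 FPKM.

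Of 11 measured targets of cell death, 1 was TIC-high and 1 NTC-high, with a median of 0.38. That is 9.09% each way, against 14.6% and 13.8% of all measured genes. The TIC-high gene was Dram1, a lysosomal protein that promotes autophagy (5.71 against 0.155 FPKM), and the NTC-high one Bid, a BH3-only protein (12.1 against 29.2). Bid lost its call with a pseudocount of 5 FPKM and Dram1 was not measured with a minimum mean of 5 FPKM, while centring gave 3 TIC-high genes. The death receptor Tnfrsf10b (12.97 against 6.30 FPKM) and the nuclease Aen (20.9 against 10.8) came close to 2-fold, while Trp53i11 (9.43 against 14.1) and Lrdd, which encodes the death-domain protein PIDD (2.30 against 3.17), were somewhat lower. Bax, the pore-forming death effector, had 38.3 against 29.1 FPKM.

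Of 13 measured targets of DNA repair, metabolism and redox balance, none was TIC-high, against 14.6% of all measured genes. NTC-high were 3 (23.1%, against 13.8%), a share that rests on few genes, and the median was -0.40. The NTC-high genes were Steap3, a metalloreductase of iron uptake (2.08 against 17.8 FPKM), the damage sensor Ddb2 (1.33 against 5.66) and the mitochondrial superoxide dismutase Sod2 (9.87 against 24.0). The tables describe Ddb2 only as belonging to several gene identifiers, and its value may combine genes. With a pseudocount of 5 FPKM Steap3 was the remaining call, with a minimum mean of 5 FPKM Ddb2 was not measured, and after centring Gadd45a was TIC-high. Gadd45a, a stress sensor (17.0 against 9.03 FPKM), the translesion polymerase Polk (8.82 against 4.97) and the repair nuclease Ercc5 (10.1 against 6.98) had higher values in TIC, below 2-fold.

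Genes listed as p63 targets in basal epithelium were largely higher in TIC. The list was chosen with earlier results of these data known, and some of its genes are also basal mammary markers. Its share therefore describes the libraries and is no test of p63 activity. Of 16 measured, 11 were TIC-high (68.8%, against 14.6% of measured genes) and 1 NTC-high, with a median log2 ratio of 1.66. The TIC-high count ran from 9 to 12 over the alternatives. The basal keratin Krt5 had 782.8 against 4.13 FPKM, P-cadherin (Cdh3) had 208.8 against 0.665, and the Notch ligand Jag2 had 72.1 against 0.228. The exception was Zfp750, a p63 target of late epidermal differentiation, with 1.11 FPKM in TIC and 44.9 FPKM in NTC. Satb1, a chromatin organiser, had 8.30 against 9.37 FPKM. With 2 libraries each gene has a single ratio. Among 144 other measured genes of the lists, the ratios nearest to that of Trp63 were those of Cdh3 (6.98), Krt5 (7.25) and Myh11 (6.33). Myh11 is a smooth muscle myosin, and all these genes are basal markers of the chosen lists. Nearness among all measured genes was not ranked.

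Perp sits in desmosomes. Of 8 other desmosomal genes, 2 were TIC-high (25.0%) and 1 NTC-high (12.5%), shares that rest on few genes and lie next to 14.6% and 13.8% of all measured genes. Their median was 0.23. The cadherin Dsc3 had 22.2 against 0.225 FPKM and desmoplakin (Dsp, also listed with several identifiers) 195.0 against 19.7, whereas the plakophilin Pkp2 had 0.101 against 27.0. Pkp1 had 28.6 against 14.1 FPKM, and the cadherins Dsg2 (36.5 against 55.1) and Dsc2 (4.88 against 8.93) had lower values in TIC. With a pseudocount of 0.1 FPKM, after centring or when scaled to the same upper quartile, Pkp1 was TIC-high and the count became 3. Of 17 measured nutrient-sensing genes of the pathway on which the sestrins act, 2 were TIC-high (11.8%) and none NTC-high, with a median of -0.08, which became 0.08 after centring on the median gene. The TIC-high genes were the mTORC1 inhibitor Ddit4 (14.0 against 5.09 FPKM) and the Rag GTPase Rragd (2.88 against 0.270). Both were within 2-fold with a pseudocount of 5 FPKM, and Rragd was not measured with a minimum mean of 5 FPKM. Sec13 had 48.0 against 24.2 FPKM and was TIC-high after centring or when scaled to the same upper quartile. Nprl2 (5.58 against 8.12), Tsc2 (19.7 against 25.4) and Seh1l (22.8 against 26.3) had lower values in TIC.

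**Figure D4:**
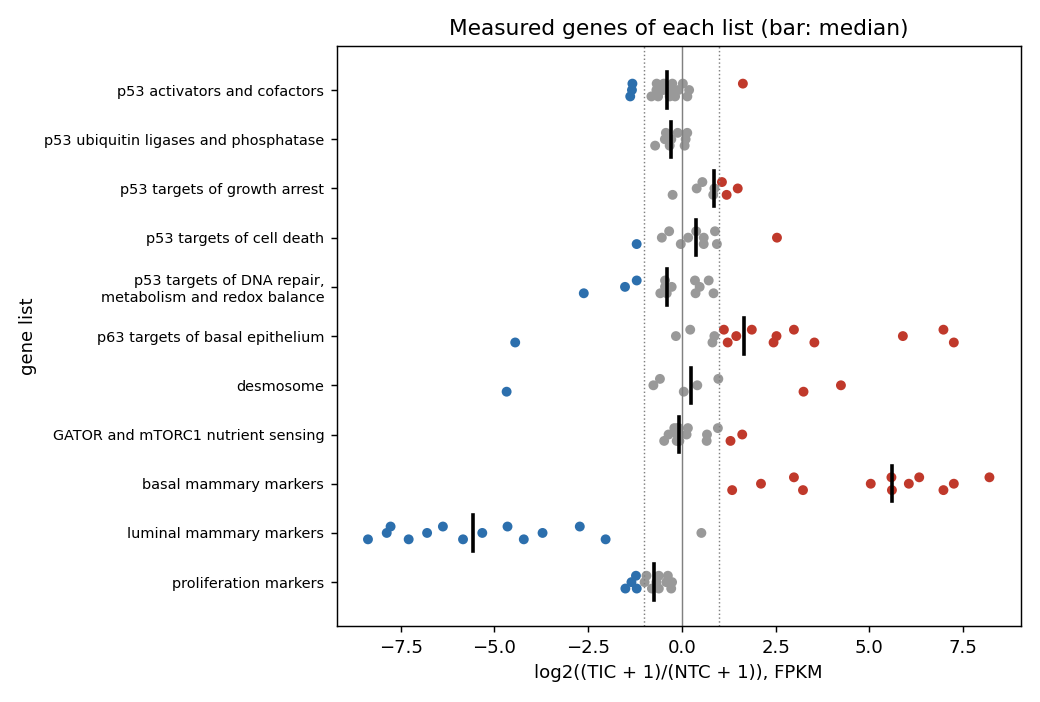
Log2 ratio of TIC to NTC for each measured gene of 11 lists (points, red TIC-high and blue NTC-high by 2-fold) with the list's median (black bar). The 3 lists of p53 targets have medians of 0.86, 0.38 and -0.40, while the p63 targets have a median of 1.66 and the basal and luminal markers lie far to the right and left.

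The libraries also differed in lineage and cycling genes, and the part of these in the values above was not tested. All 12 basal mammary markers were TIC-high (summed 3799 against 62.4 FPKM), Krt5, Acta2 and Cdh3 most of all, and 3 of the 12 are also p63 targets of the list above. Of 14 luminal markers, 13 were NTC-high (59.1 against 3813 FPKM), led by Krt19, Cldn3 and Elf5, while Pgr had 4.68 against 2.95 FPKM. Proliferation markers had lower values in TIC for 14 of 14, with a median log2 ratio of -0.74 against -0.16 over all measured genes. The 14 summed to 285.3 against 534.5 FPKM. NTC-high were 4 (28.6%, against 13.8% of measured genes), such as Mcm5, Mcm2 (also listed with several identifiers) and Ccnb2. All 5 of 8 fibroblast markers that were measured were TIC-high, and the 8 summed to 176.9 against 2.44 FPKM. Dcn, at 151.8 against 1.51 FPKM, made up most of the TIC sum. Col1a2 had 9.56 against 0.0119 FPKM and Pdgfra 8.83 against 0.513. The unmeasured markers were Col1a1 (0.459 against 0.339 FPKM), Lum (0.573 against a listed 0) and Col3a1 (0.221 against a listed 0). With a pseudocount of 5 FPKM, 3 fibroblast markers were TIC-high, and with a minimum mean of 5 FPKM 1 was, Dcn. Leukocyte markers summed to 0.962 and 6.61 FPKM, with 4 of 9, Ptprc, Cd3e, Emr1 and Ncr1, listed at 0 in both libraries; S100a8 had 5.11 FPKM in NTC, with a listed 0 for TIC, and Cd68 had 0.828 and 1.38. Endothelial markers summed to 3.12 and 0.351 FPKM, and none of the 6 was measured. In such pooled cells, fewer cells of a type and less RNA per cell cannot be told apart.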

How the data were processed

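The authors deposited 1 table of FPKM per gene for each of 2 libraries. Per the submitters' processing notes, the build was mm9 and the software included Cuffdiff, Cufflinks, TopHat 1.4.0 and CASAVA 1.8.2, with no settings. Loci are of mouse genes although their heading gives a human build; 1 was added to each start. No locus of another gene overlapped those of the 10 genes. FPKM are not counts, so no count model was fitted. Log2 ratios used a pseudocount of 1 FPKM.

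Depth was taken from olfactory and vomeronasal receptor genes with loci under 1.5 kb, as the inverse of the median FPKM × kb between 0.035 and 0.065 (23 genes in TIC, 39 in NTC), and is rough. Fragments were FPKM × median length of the gene's protein-coding GENCODE transcripts × depth. Intervals on levels are exact Poisson, and those on ratios Clopper-Pearson.

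The members and the 14 lists (173 entries, 172 found; 1 further entry is not reported here) were chosen with earlier results of these data known. Named genes are all members and up to 3 measured genes per list in each direction. Cdkn1a, Bax, Sesn3, Wrap53, the unmeasured fibroblast markers and the leukocyte markers listed at 0 were named after their values were seen. Scripts (Python 3.11.15, pandas 2.3.3, NumPy 2.4.6, SciPy 1.17.1, matplotlib 3.10.9) were tested on simulated data. Alternatives covered the pseudocount, the minimum level and the scaling.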

Additional observations from a re-analysis of the deposited data

How the results depend on the processing

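Across 6 alternatives, 5 of the 10 genes were TIC-high and 0 NTC-high each time, and 60 of 60 single-gene values stayed on their side of 2-fold. The alternatives of the minimum level (none, or a mean of 5 FPKM) could not change these values, since all 10 genes passed both. The sign held for 58 of 60; Mdm4 became 0.13 when centred on the median gene and 0.08 when scaled to the same upper quartile. When centred, Ccng1 was 0.18, Trp53 0.51 and Mdm2 0.92, each above its counting interval. The median of the 10 genes was 0.95 with a pseudocount of 5 FPKM and 1.46 when centred. Over all genes, 1086 were TIC-high and 921 NTC-high with a pseudocount of 5 FPKM, and 1108 were TIC-high with a minimum mean of 5 FPKM. After centring, 1952 were TIC-high and 1356 NTC-high. The log2 ratio of Trp73 ran from 1.62 (pseudocount of 5 FPKM) to 5.98 (pseudocount of 0.1 FPKM), since its NTC level is near 0. The list counts cover the 14 lists and the 3 lists of p53 targets joined, so those targets enter more than once. Of 180 list counts, 23 moved by more than 1.5 times or to or from 0. Of these, 9 moved with a pseudocount of 5 FPKM, 6 with a minimum mean of 5 FPKM and 4 after centring. The calls lost in the p53 and nutrient-sensing lists are given beside each list. No replicate could be left out, and no paired analysis was possible because each group has 1 library. Depth limits Trp73 in NTC most.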
